A study of Mus musculus with 12 samples.

Results

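The genes described here encode 8 immune checkpoint ligands that tumour cells can carry on their surface or release: Cd274, Pdcd1lg2, Cd47, Cd276, Lgals9, Pvr, Nectin2 and Tnfrsf14. They were chosen by name, and all 8 were found among the 55487 genes of the count table. The filter on low counts kept 7 of them among 14591 tested genes, and Pdcd1lg2 did not pass it. RNA was sequenced from B16F10 cells, a wild-type mouse melanoma line, after 24 h in conditioned medium of bone-marrow-derived macrophages (BMDM), with 3 libraries in each of 4 groups. The macrophages had been kept for 24 h in control medium (M0), in 20 ng/ml of interferon gamma, spelt INF-γ by the submitters (M1), in 20 ng/ml IL-4 (M2), or in 75% medium conditioned by B16F10 cells (TAM, after the term for tumour-associated macrophages). All groups therefore carry macrophage-conditioned medium, and none shows B16F10 cells without it. The labels do not say whether the added cytokine or tumour medium was removed before collection, so macrophage products and carried-over cytokine cannot be told apart. Whether the 3 libraries per group are separate cultures is also not stated, and p-values therefore reflect library-to-library spread that may be only technical.

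Checkpoint ligands pass signals to lymphocytes and macrophages that meet the cell carrying them. PD-L1 and PD-L2 engage PD-1 and restrain T cells, CD47 engages SIRPα and restrains phagocytosis, and galectin-9 binds TIM-3. PVR and nectin-2 bind both the inhibitory receptor TIGIT and the activating receptor CD226, and HVEM, the product of Tnfrsf14, binds BTLA and CD160. Interferon gamma is the classical inducer of PD-L1 in tumour cells, acting through the JAK kinases and the transcription factor IRF1.

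Library totals ran from 15916756 to 20863973 counts. M0 replicate 1 stood apart: its log2 CPM correlated at 0.941 and 0.944 with the other M0 libraries against 0.991 to 0.992 for the other pairs within groups, and 7.11% of its counts fell on ribosomal protein genes, compared with 3.21% to 3.75% in the other libraries. The mean exon length weighted by counts was 4545 bp there, the lowest of the 12. Changes of the ligands against M0 are therefore also given without it. Of the genes in the other lists, cell type markers aside, the 29 called in M1 versus M0 and the 28 called in TAM versus M0 were all called in the same direction without it, and 2 of them, in M1, moved by over 1.5 times. The 8 melanocyte markers summed to 20809 to 21034 CPM in M0 and 19358 to 19725 in M2, but to 13979 to 14486 in M1 and 14634 to 15471 in TAM. In M1 versus M0 5 of the 8 fell, where 13.5% of all tested genes were called lower. In TAM versus M0 6 of the 8 fell, where 27.2% were called lower. Without M0 replicate 1, 7 fell in each, beside 22.9% and 33.7% of all tested genes. None was higher, and the part of these markers in the ligand results was not tested. Of 23 macrophage markers 6 passed the filter, and Ptprc, Adgre1 and Itgam had 0 counts in all 12 libraries, with at most 4 counts of Csf1r in any group. The summed macrophage markers were nevertheless higher in M1, at 23.04 to 25.1 CPM against 5.37 to 8.13 in M0, 6.02 to 6.72 in M2 and 3.94 to 5.03 in TAM. Mpeg1 held 886 of the M1 counts against 1 in M0, and the part of these genes in the M1 results was not tested. Of the dendritic cell, lymphocyte and NK cell, and fibroblast and endothelial markers, 1 of 8, 1 of 12 and 1 of 10 passed the filter. Fewer cells of a type and less RNA per cell cannot be told apart in these bulk samples.

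Transcripts of 5 of the 7 tested ligands rose in medium of interferon-treated macrophages, and 4 changed in medium of macrophages exposed to tumour medium. In M1 versus M0, Tnfrsf14, Cd274, Lgals9, Cd47 and Pvr rose and none fell, where 12.2% of all tested genes were called higher, 13.5% lower and 25.7% in either direction. Without M0 replicate 1, 6 ligands rose, beside 47.1% of genes called in either direction. The median log2 change of the 7 ligands was 2.26, beside -0.02 for all tested genes. Tnfrsf14 passed the filter only through its M1 libraries, so its place among the tested ligands depends on its high level there. In TAM versus M0, Pvr, Cd274 and Nectin2 rose and Lgals9 fell, where 50.5% of all tested genes were called, 23.3% higher and 27.2% lower, so that 4 of 7 is close to the background. Without M0 replicate 1 the ligands called again numbered 4, beside 66.7% of genes. The median of the ligands there was 0.48. In M2 versus M0 none of the 7 was called, as none of the 14591 genes was (0% called; 980 genes had an unadjusted p under 0.05 in edgeR, DESeq2 called 7 and limma-voom 0). There, 51 genes were called without M0 replicate 1 (0.341%), with no ligand among them. Genes were called at an adjusted p under 0.05 in edgeR's quasi-likelihood test, with Benjamini-Hochberg adjustment over all tested genes. The libraries of 2 groups did not overlap for 42.3% of all tested genes in M1 versus M0, 12.3% in M2 versus M0 and 58.9% in TAM versus M0. These shares were 73.2% in TAM versus M1, 72.6% in TAM versus M2 and 55.2% in M1 versus M2. A lack of overlap, given below for single ligands, is thus common outside M2 versus M0.

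**Figure D1:**
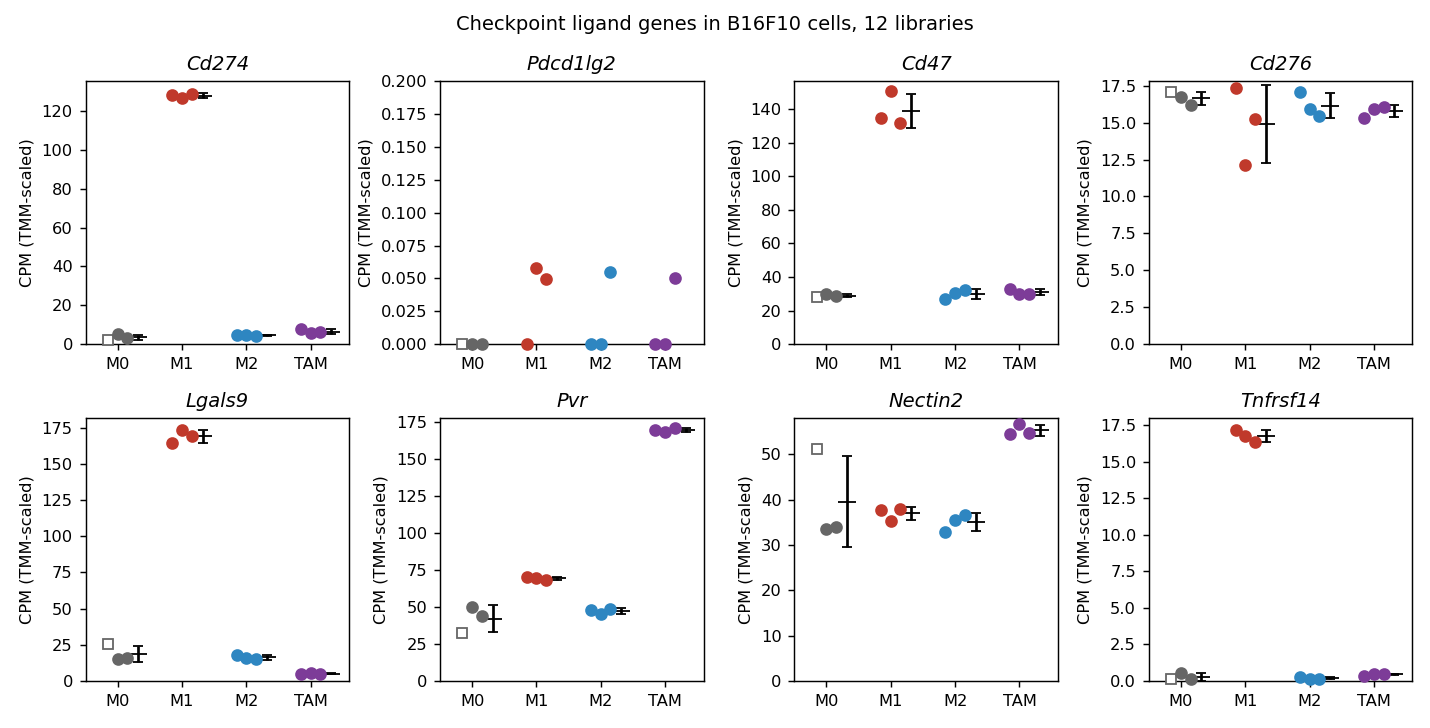
Level of each of the 8 ligand genes in CPM (TMM-scaled, linear axes from 0) in the 3 libraries of each group, with M0 replicate 1 as an open square. Black bars give the mean and SD of 3 libraries, left out for Pdcd1lg2. Cd274, Cd47, Lgals9 and Tnfrsf14 are highest in M1, Pvr and Nectin2 are highest in TAM, and Lgals9 is lowest in TAM.

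Cd274 encodes PD-L1, the main PD-1 ligand of tumour cells (chromosome 19, 29367455 to 29388095, plus strand, mm10). Its 3 M0 libraries held 42, 80 and 65 counts, or 2.34, 5.01 and 3.11 CPM. In M1 it stood at 128, 126 and 129 CPM, in M2 at 4.77, 4.71 and 4.43, and in TAM at 7.73, 5.73 and 6.13. Every M1 library lay far above every other library, the TAM libraries lay above all M0 and M2 libraries, and M2 overlapped M0. TAM did not overlap M0 for 58.9% of all tested genes, or M2 for 72.6%. The M1 rise over M0 was 5.21 ± 0.23 on the log2 scale (SE, n = 3 per group, adjusted p = 3.33e-08), which is 36.9-fold and larger than the absolute change of all but 1.19% of tested genes. Without M0 replicate 1 it was 5.05 ± 0.11. TAM medium gave a much smaller rise, 0.91 ± 0.22 (adjusted p = 0.00532), or 0.72 ± 0.15 without that library. Its call was lost when only M0 and TAM libraries were fitted (adjusted p = 0.0662). TAM was lower than M1 by a log2 change of -4.29 ± 0.22 (adjusted p = 6.72e-08). The difference between TAM and M2 was 0.49 ± 0.21 and missed the threshold (adjusted p = 0.0848), but was called without M0 replicate 1 (adjusted p = 0.000998). M2 differed from M0 by 0.42, with a 95% interval from -0.07 to 0.92.

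Pdcd1lg2, the gene of the other PD-1 ligand PD-L2, lies 22824 bp downstream of Cd274 (chromosome 19, 29410919 to 29471161, plus strand). It had 0 counts in M0, 2 in M1, 1 in M2 and 1 in TAM, summed over 3 libraries. A floor of 3 counts corresponds to 0.144 to 0.188 CPM per library, so any level under that was not detectable at this depth, and no fold is given. Pdcd1lg2 was thus at or under this floor in M1 as well, where Cd274 reached 7236 counts.

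**Figure D2:**
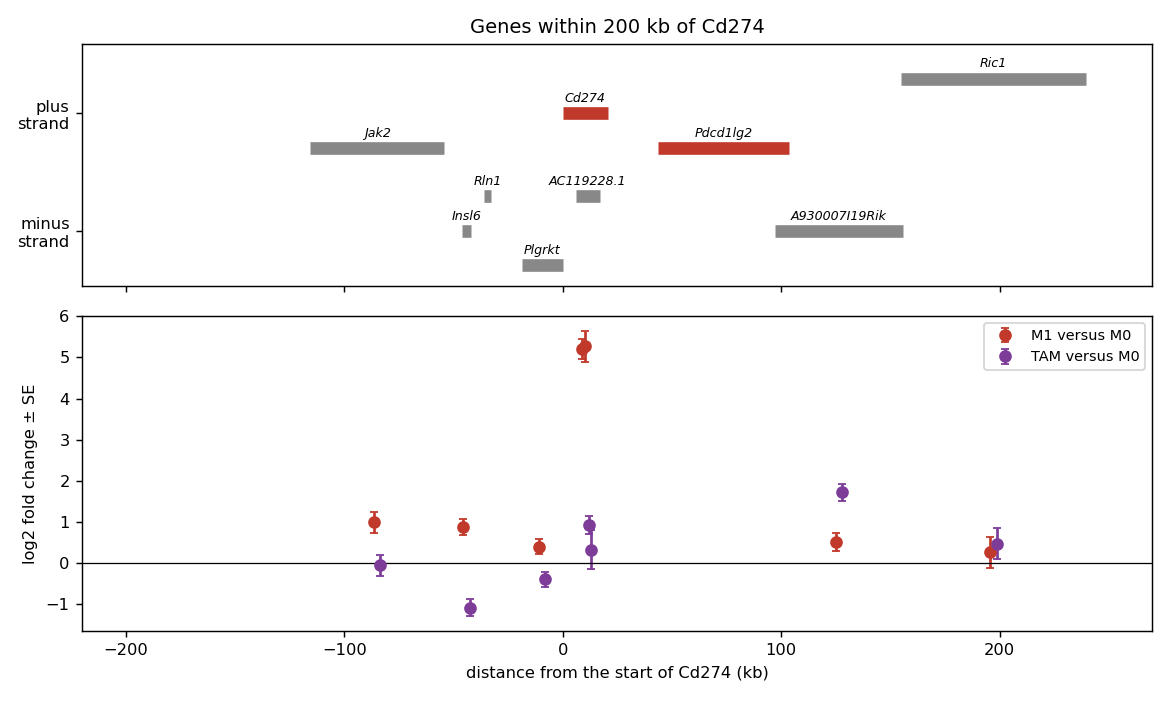
Genes within 200 kb of Cd274, drawn by strand as distance from the start of Cd274 in kb (upper panel), and the log2 fold change ± SE of those that passed the filter (lower panel). In M1 versus M0, Cd274 and an antisense gene inside it rise by over 5 log2 units, while Jak2 and Insl6 rise by 1.00 and 0.88. In TAM versus M0 the antisense gene overlapping Pdcd1lg2 rises by 1.72 and Insl6 falls by 1.09.

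Of 8 annotated genes within 200 kb of Cd274, 6 were tested and 3 rose in M1, where 12.2% of all tested genes were called higher. Besides an antisense gene annotated inside Cd274, which rose by 5.27 ± 0.38, these were Jak2, a kinase of the interferon gamma receptor (1.00 ± 0.25, adjusted p = 0.0156), and Insl6, a relaxin-family gene (0.88 ± 0.19). The antisense gene held 1357 counts over 12 libraries. As no strand setting is given, its reads and those of Cd274 cannot be told apart. In TAM versus M0, Insl6 fell (-1.09 ± 0.21, adjusted p = 0.00133), Jak2 was not called at -0.06, and A930007I19Rik, an antisense gene overlapping Pdcd1lg2, rose by 1.72 ± 0.21 (adjusted p = 5.99e-05). These neighbours kept their calls without M0 replicate 1.

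Cd47 encodes the ligand of SIRPα (chromosome 16, 49800533 to 49915010, plus strand). The M0 libraries held 28.2, 30.0 and 28.5 CPM and the M1 libraries 135, 151 and 132. M2 held 26.8, 30.7 and 32.4, and TAM 33.0, 29.9 and 30.2. Only M1 stood apart, and the other 3 groups overlapped. The M1 rise was 2.26 ± 0.10 (adjusted p = 2.91e-08), or 4.8-fold, and 2.29 ± 0.07 without M0 replicate 1. TAM differed from M0 by 0.10 (95% interval -0.11 to 0.32) and M2 by 0.05 (-0.17 to 0.27), neither called.

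Cd276 encodes B7-H3, a B7-family member whose receptor is not settled (chromosome 9, 58524298 to 58555437, minus strand). M0 held 17.1, 16.7 and 16.2 CPM, M1 17.4, 12.1 and 15.3, M2 17.1, 15.9 and 15.4, and TAM 15.3, 15.9 and 16.1. The widest spread lay within M1. The 3 TAM libraries lay just below the M0 libraries, a lack of overlap seen for 58.9% of all tested genes. M1 differed from M0 by -0.16 on the log2 scale (95% interval -0.43 to 0.11), M2 by -0.05 (-0.32 to 0.23) and TAM by -0.08 (-0.35 to 0.19), and none of the 6 comparisons was called.

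Lgals9 encodes galectin-9 (chromosome 11, 78962974 to 78984946, minus strand) and moved in opposite directions in M1 and TAM. The M0 libraries held 452, 240 and 334 counts and the M1 libraries 3154, 2983 and 3416. M2 held 348, 321 and 273, and TAM 98, 108 and 92. Mean levels were 18.7 ± 5.61 CPM (SD, n = 3) in M0, 169 ± 4.49 in M1, 16.2 ± 1.49 in M2 and 5.04 ± 0.387 in TAM. No M1 or TAM library overlapped any library of another group, and M0 replicate 1 was the highest M0 library. The M1 rise was 3.17 ± 0.18 (adjusted p = 2.68e-07), or 9.02-fold, and 3.48 ± 0.07 without M0 replicate 1. The TAM fall was -1.89 ± 0.18 (adjusted p = 1.14e-05), a level 3.71-fold lower, and -1.63 ± 0.11 without that library. TAM was also below M2 (-1.69 ± 0.18, adjusted p = 2.83e-05), while M2 and M0 did not differ beyond their spread (-0.21, 95% interval -0.59 to 0.17).

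Pvr encodes the poliovirus receptor homologue CD155 (chromosome 7, 19903578 to 19921160, minus strand). It held 32.6, 50.01 and 44.04 CPM in M0, 70.5, 69.4 and 68.1 in M1, 47.8, 45.3 and 49.0 in M2 and 169.8, 169 and 171 in TAM. TAM libraries lay above all others, M1 libraries lay above all M0 and M2 libraries, and M2 overlapped M0. The TAM rise was 2.01 ± 0.13 (adjusted p = 7.73e-07), or 4.03-fold, and 1.85 ± 0.06 without M0 replicate 1, which was the lowest M0 library. The M1 rise was 0.72 ± 0.13 (adjusted p = 0.00252), or 0.60 ± 0.06 without it, and lost its call when only M0 and M1 libraries were fitted (adjusted p = 0.0577). TAM exceeded M1 by 1.29 ± 0.13 (adjusted p = 1.54e-05). A processed pseudogene and an antisense gene overlap Pvr, with 249 and 13 counts over all libraries.

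Nectin2 encodes nectin-2, or CD112, 153095 bp from Pvr on the same chromosome (19716644 to 19750483, minus strand). It held 51.1, 33.6 and 33.9 CPM in M0, 37.8, 35.3 and 37.8 in M1, 32.9, 35.5 and 36.7 in M2 and 54.5, 56.7 and 54.8 in TAM. The TAM libraries were the highest, and M0 replicate 1 lay close under them and apart from the other M0 libraries. The TAM rise over M0 was 0.48 ± 0.15 (adjusted p = 0.0172), and 0.71 ± 0.07 without M0 replicate 1. Leaving out M0 replicate 2 or 3, or fitting only M0 and TAM, ended the call (adjusted p = 0.0599, 0.0617 and 0.103). TAM also exceeded M1 (0.58 ± 0.15, adjusted p = 0.00775) and M2 (0.66 ± 0.15, adjusted p = 0.00376). M1 versus M0 was not called at -0.10, but without M0 replicate 1 it reversed to 0.17 and was called (adjusted p = 0.0417).

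Tnfrsf14 encodes HVEM (chromosome 4, 154921933 to 154928563, minus strand). It was close to the detection floor outside M1, with 2, 9 and 3 counts in M0, 5, 3 and 3 in M2 and 7, 10 and 9 in TAM. The M1 libraries held 329, 288 and 330 counts, or 17.1, 16.7 and 16.4 CPM. M1 stood apart from all other libraries, and TAM overlapped M0. The gene passed the filter on low counts only through the M1 libraries, where it is high, so its call in M1 adds little to these counts. The M1 rise was 5.98 ± 0.34 (adjusted p = 2.34e-07), or 63.3-fold, and 5.69 ± 0.27 without M0 replicate 1. M0 replicate 2 held 9 of the M0 counts, and without it the M1 rise was 6.96, the highest of its alternatives. TAM differed from M0 by 0.75 (95% interval -0.28 to 1.78, adjusted p = 0.199), and was called higher without M0 replicate 2 (1.71, adjusted p = 0.0125).

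**Figure D3:**
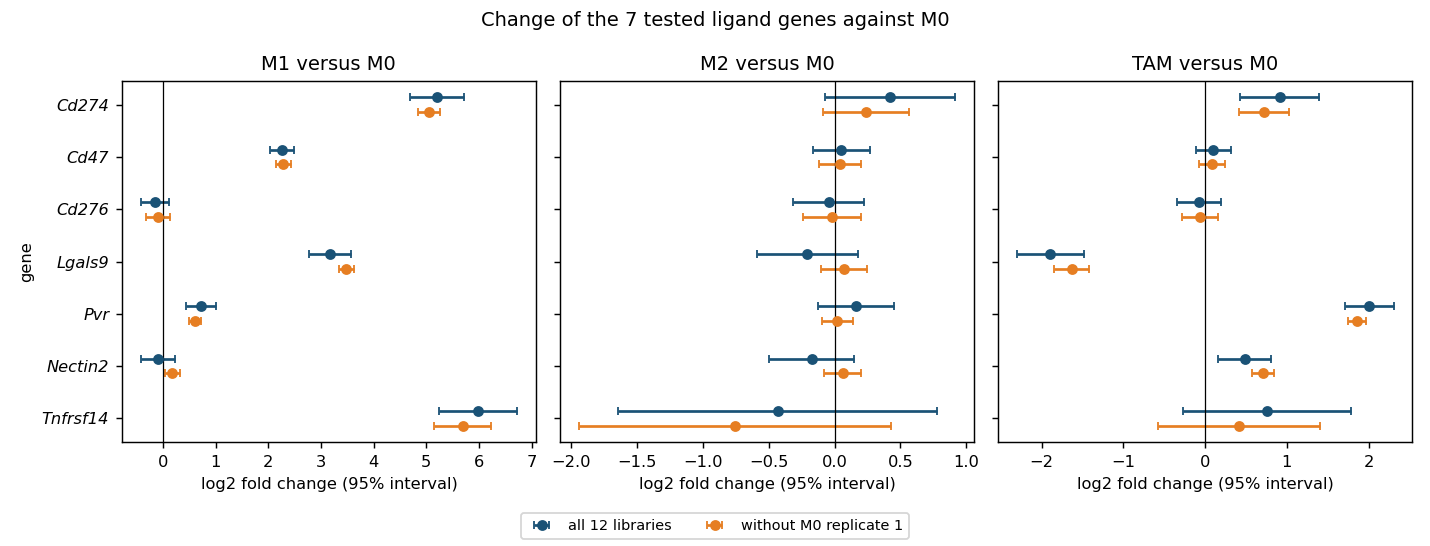
Log2 fold change of the 7 tested ligands against M0 with 95% intervals, for M1, M2 and TAM (linear axes of different range), with all 12 libraries and without M0 replicate 1. The M1 panel shows 5 rises with intervals above 0 in both fits, and the TAM panel shows Lgals9 below 0 and Pvr, Cd274 and Nectin2 above it.

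Between the treated groups, 6 of 7 ligands differed in TAM versus M1 (43.0% of all tested genes), 3 in TAM versus M2 (43.2%) and 5 in M1 versus M2 (17.2%). These numbers were 6 (70.1%), 5 (69.5%) and 5 (48.3%) without M0 replicate 1, with Cd274 and Tnfrsf14 added in TAM versus M2. TAM was below M1 for Lgals9 (-5.07 ± 0.20), Tnfrsf14 (-5.23 ± 0.31), Cd274 and Cd47 (-2.16 ± 0.10), and above it for Pvr and Nectin2. M1 exceeded M2 for Cd274, Cd47, Lgals9, Tnfrsf14 and Pvr, the last by 0.55 ± 0.13 (adjusted p = 0.0135). Tnfrsf14 passed the filter only through the M1 libraries, so its calls against M1 add little to its counts.

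Divided by merged exon length, levels can be set beside each other across genes. In M0, Nectin2 was the highest at 11.3 CPM per kb, ahead of Lgals9 (8.77), Pvr (6.90), Cd47 (4.61), Cd276 (4.55), Cd274 (0.963) and Tnfrsf14 (0.190). Over M0 replicates 2 and 3 alone, Pvr (7.68) stood above Lgals9 (7.26), so the order of this pair rests on M0 replicate 1. In M1, Lgals9 (79.1) and Cd274 (35.3) led, followed by Cd47 at 22.1, and Tnfrsf14, Pvr and Nectin2 lay between 10.6 and 11.6. In TAM, Pvr (27.8) and Nectin2 (15.8) led and Lgals9 stood at 2.36. The order of the ligands thus differed between media, with Cd276 near 4 CPM per kb in each, from 4.08 to 4.55.

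**Figure D4:**
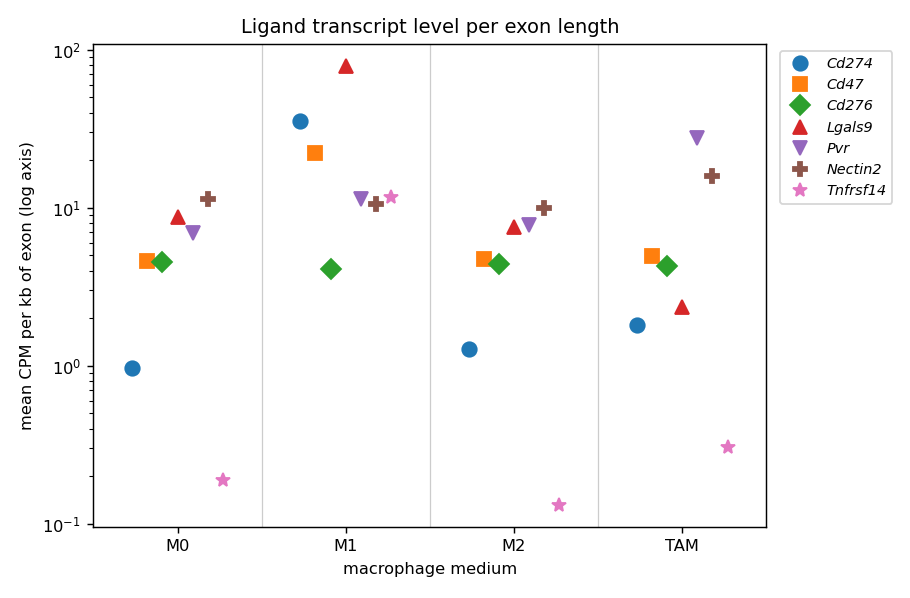
Mean level of the 7 tested ligands in CPM per kb of merged exon (log axis) in each medium, with points of a group spread sideways for legibility. Lgals9 and Cd274 lead in M1 and Pvr and Nectin2 in TAM, and Cd276 lies between 4.08 and 4.55 in every group.

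The sequence around the RefSeq start (GRCm38.p6, from 250 bases before to 50 after it) was available for 7 of the 8 ligands, Pvr being the exception. Both strands were searched for GAS (TTCNNNGAA), a pair of interferon-stimulated response element half-sites (GAAA and GAAA with 2 bases between them, TTTC and TTTC on the other strand), AP-1 (TGANTCA), CRE (TGACGTCA) and an ATF4 element (TGATGCAA), which occur in 8.30%, 3.44%, 7.81%, 1.79% and 0.895% of 32851 such windows. The 4 ligands with the largest M1 rise are shown, with matches in capitals. These windows lie at chr19:29367188-29367487 (plus strand), chr11:78984875-78985174 (minus strand), chr4:154928028-154928327 (minus strand) and, for Cd47, chr16:49855404-49855703 (plus strand), and each is written 5′ to 3′ along its gene.
Cd274: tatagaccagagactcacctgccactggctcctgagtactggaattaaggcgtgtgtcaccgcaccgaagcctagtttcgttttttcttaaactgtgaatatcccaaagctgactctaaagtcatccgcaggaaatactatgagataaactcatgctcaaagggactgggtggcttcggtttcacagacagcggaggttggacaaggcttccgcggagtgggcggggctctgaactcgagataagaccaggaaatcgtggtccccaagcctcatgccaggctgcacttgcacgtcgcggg
Lgals9: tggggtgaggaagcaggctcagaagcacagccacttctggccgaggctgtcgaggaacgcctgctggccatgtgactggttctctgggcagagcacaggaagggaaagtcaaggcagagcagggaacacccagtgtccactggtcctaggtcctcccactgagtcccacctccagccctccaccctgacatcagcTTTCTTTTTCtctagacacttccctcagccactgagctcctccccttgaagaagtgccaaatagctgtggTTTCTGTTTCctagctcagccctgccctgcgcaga
Tnfrsf14: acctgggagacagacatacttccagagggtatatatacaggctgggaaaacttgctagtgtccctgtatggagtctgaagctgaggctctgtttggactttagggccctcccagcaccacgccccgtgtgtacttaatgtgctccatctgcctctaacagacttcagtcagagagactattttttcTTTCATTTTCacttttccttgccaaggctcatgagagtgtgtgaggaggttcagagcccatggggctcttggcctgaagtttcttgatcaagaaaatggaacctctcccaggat
Cd47: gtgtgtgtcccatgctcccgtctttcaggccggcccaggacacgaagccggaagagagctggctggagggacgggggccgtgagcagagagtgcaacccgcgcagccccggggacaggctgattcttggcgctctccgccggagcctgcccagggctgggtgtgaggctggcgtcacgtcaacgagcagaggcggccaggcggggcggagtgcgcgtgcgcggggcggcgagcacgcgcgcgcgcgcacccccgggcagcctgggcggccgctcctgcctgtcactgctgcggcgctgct
The capitals mark the half-site pair, on the strand opposite to the gene. Counting the start base as 0, Lgals9 held it from -55 to -46 and from 15 to 24 and Tnfrsf14 from -64 to -55. The windows of Cd274, Cd47, Cd276 and Pdcd1lg2 held no match to any of the 5 motifs, and that of Nectin2 held a CRE from 39 to 46. A match is only a run of letters, and says nothing of binding.

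Of the 14 genes fixed as the interferon gamma signalling list, all were tested and 12 rose in M1 with 0 falling, where 12.2% of all tested genes were called higher. The median log2 change of the list was 2.21. Without M0 replicate 1, 13 rose, beside 24.3% of all tested genes called higher. Irf1 rose by 5.59 ± 0.16 (14.2 ± 2.82 to 683 ± 2.08 CPM, SD), Nlrc5, a regulator of MHC class I genes, by 9.26 ± 0.23, and Stat2 by 4.48 ± 0.16. In TAM, 5 rose and 3 fell, beside 50.5% of all tested genes called. Without M0 replicate 1, 7 rose and 4 fell, beside 66.7%. These counts are near the background, and whether they differ from it was not tested. With all 12 libraries, Irf1 fell in TAM by 0.41 (adjusted p = 0.0296), while Nlrc5 rose by 1.66 ± 0.24 and the phosphatase gene Ptpn2 by 0.62 ± 0.08. Without M0 replicate 1 the change of Irf1 in TAM was -0.26 ± 0.09. Cd274 was higher in TAM, and whether its change and that of Irf1 are linked was not tested.

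The list of 13 regulators of PD-L1 and CD47 protein held calls in either direction in both media. In M1, 4 rose and 3 fell, beside 25.7% of all tested genes, among them Cmtm6, whose product protects PD-L1 from lysosomal breakdown (0.66 ± 0.11, adjusted p = 0.00119), the glycosyltransferase gene B3gnt3 (1.77 ± 0.16) and, lower, Hip1r (-0.82 ± 0.14). Without M0 replicate 1 these counts were 5 and 6, beside 47.1%. In TAM, 3 rose and 3 fell, or 4 and 4 without that library, and these shares are close to the 50.5% and 66.7% of all tested genes. Stt3a of the oligosaccharyltransferase rose by 0.77 ± 0.11 (adjusted p = 0.000136) and Qpctl, whose enzyme modifies the SIRPα-binding end of CD47, by 0.63 ± 0.13, while the ubiquitin ligase gene Stub1 differed by -0.80 ± 0.22 (adjusted p = 0.0106).

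**Figure D5:**
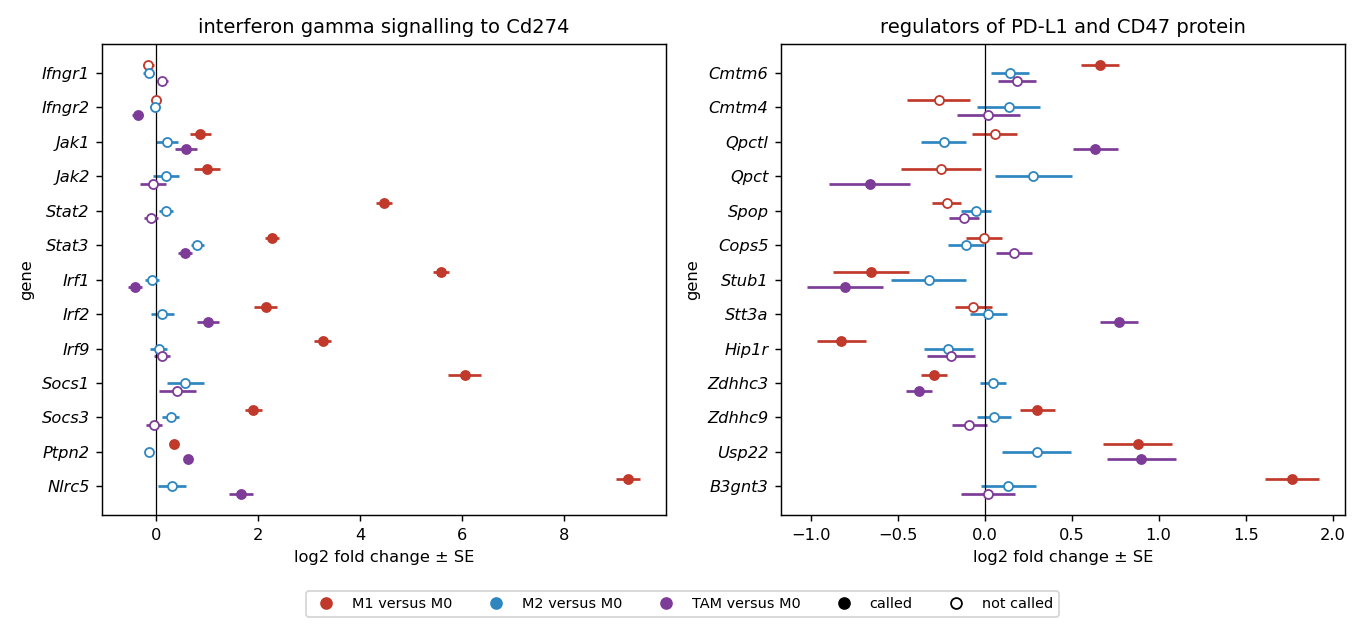
Log2 fold change ± SE against M0 for 13 genes of the interferon gamma signalling list (left) and the regulators of PD-L1 and CD47 protein (right), in M1, M2 and TAM. Filled points were called and open points were not. In M1 the signalling genes rise by up to 9.26, while the regulators stay within 2 log2 units of 0 and lie on both sides of it.

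Of 14 genes for binding partners of the ligands, 5 were tested, and Pdcd1, Cd226, Cd96, Pvrig and Tnfsf14 had 0 counts in every library. Sirpa, the CD47 receptor gene, was expressed by the melanoma libraries at 293 ± 5.35 CPM in M0, fell to 129 ± 2.61 in M1 (-1.18 ± 0.08, adjusted p = 8.03e-07) and rose to 417 ± 7.93 in TAM (0.51 ± 0.08, adjusted p = 0.000253). Thbs1, for the CD47 ligand thrombospondin-1, rose in M1 from 7.28 ± 4.58 to 104 ± 6.1 CPM (3.84 ± 0.43). Havcr2, for TIM-3, was low and fell in M1 (-1.77 ± 0.31) and TAM (-2.19 ± 0.32), from 3.43 ± 0.369 CPM. Rgmb and Cd80 were not called in either comparison with all 12 libraries. Without M0 replicate 1, 6 of the 14 were tested. Of these, 2 rose and 2 fell in M1, beside 47.1% of all tested genes called. In TAM, 1 rose and 4 fell, beside 66.7%, and Thbs1 was among those that fell, at -1.14 ± 0.13.

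Genes whose log2 CPM followed a ligand most closely over the 12 libraries were Nlrc5, Ripk2 and Parp14 for Cd274 (Pearson r from 0.995 to 0.996), Trim30a, Ifi211 and Trim34a for Cd47, Mov10, H2-T22 and C2 for Lgals9, and Gbp2, Gbp3 and Usp18 for Tnfrsf14. For Pvr they were Fam198b, Plk2 and Tlk2, and for Nectin2 Nat8, Tmed4 and Coq9. Cd276 had the loosest match, 0.808 with Zfp865. Most of these names changed without M0 replicate 1: the closest gene was then Tap2 for Cd274, Ifi211 for Cd47, Myo1e for Lgals9, Enpp4 for Tnfrsf14, Tlk2 for Pvr, Skil for Nectin2 and Fam126a for Cd276 (0.850), and none of the genes named above for Lgals9, Nectin2 or Cd276 stayed among the closest 3. The 12 points share 4 group means, and the values describe these libraries only.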

How the data were processed

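The authors deposited 1 table of raw counts, whole reads per Ensembl gene, for 12 libraries of B16F10 cells. HISAT2 2.0 and mm10 are named per the submitters' processing notes, while the counter, annotation and strand setting were not given in the sources used here. RNA was Trizol-extracted and prepared as Illumina mRNA libraries, per the labels' protocols. Groups and replicate numbers came from the labels, and coordinates and merged exon lengths from GENCODE M21 (GRCm38, equal to mm10), 1-based.

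Testing used edgeR 4.0.16 under R 4.3.3: filterByExpr by group, TMM scaling and 1 robust quasi-likelihood fit of all 12 libraries with a mean per group. P-values of 6 comparisons were adjusted by Benjamini-Hochberg over all 14591 tested genes (14968 without M0 replicate 1). Each SE is the absolute log2 change over the square root of the F statistic. CPM are counts over TMM-scaled totals of tested genes, and marker sums are unscaled. A floor of 3 counts covers counting error only, since PCR reads lacking molecular identifiers are no independent molecules. DESeq2 1.42.0, limma-voom 3.58.1, other scalings, no filter, a replicate block, fits of 2 groups and leaving out each library were the alternatives. The code was tested on simulated counts.

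Named genes were the 8 ligands, up to 4 called members of each list in M1 or TAM versus M0, tested binding partners, neighbours within 200 kb, and the 3 protein-coding genes most correlated with each ligand. Some results that this rule names are not reported here. Members and lists were chosen with earlier results of these data known. No pair of replicate libraries agreed within sampling noise (chi-square of at least 2.31 per gene).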

Additional observations from a re-analysis of the deposited data

How the results depend on the processing

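Of 114 counts of ligands called under an alternative, 111 stayed within 1.5 times the value reported. Fitting only M0 and TAM left 2 ligands called in TAM versus M0 against 4. Leaving out 1 library at a time gave 3 to 4 there, 5 to 6 in M1 versus M0, 3 to 5 in TAM versus M2 and 0 in M2 versus M0, with 5 in TAM versus M2 without M0 replicate 1 or 2. Of 795 log2 changes under alternatives 772 kept direction and side of the threshold, 6 lost and 7 gained a call, and 10 changed sign. The sign changes each followed the loss of 1 library. Over these fits the log2 change of Nectin2 ranged from -0.19 to 0.17 in M1 versus M0 and from -0.28 to 0.061 in M2 versus M0, that of Lgals9 from -0.34 to 0.069 and that of Tnfrsf14 from -0.76 to 0.54 in M2 versus M0. Cd47 ranged from -0.0099 to 0.13 in M2 versus M0 and from -0.031 to 0.10 in TAM versus M2, and Cd276 from -0.061 to 0.19 in TAM versus M1, from -0.071 to 0.0016 in TAM versus M2 and from -0.23 to 0.021 in M1 versus M2. Of the changed signs only that of Nectin2 in M1 versus M0, without M0 replicate 1, was called. Pvr in M1 versus M2 lost its call without M2 replicate 2 (adjusted p = 0.0619). The causes were not tested.

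Replicate numbers did not pair the libraries: 1 of 18 same-numbered pairs correlated above 0.1 (-0.120 to 0.149), and 3 of 12 libraries matched their own number best. With the replicate block, 5 ligands were called in M1 versus M0, Cd274 at 5.21, and 3156 genes in all against 3744. All genes called in M1 versus M0 numbered 1282 with only those groups and 7056 without M0 replicate 1, whose removal took the common dispersion from 0.0324 to 0.00166. Of 1482 counts for the other lists 74 moved by over 1.5 times. Depth leaves Pdcd1lg2 undetectable and Tnfrsf14 imprecise outside M1.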

Other observations

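Of 4 tested NKG2D ligands, which mark stressed cells for NK cells, Ulbp1 and H60b rose in both M1 (2.01 ± 0.31 and 0.82 ± 0.27) and TAM (1.96 ± 0.31 and 1.11 ± 0.26), and Raet1d and Raet1e fell in TAM (-1.02 ± 0.15 and -1.16 ± 0.41). The Raet1 and H60 genes are close relatives, so their counts are uncertain. Among all tested genes 25.7% were called in M1 versus M0 and 50.5% in TAM versus M0. Whether the short lists named here differ from those shares was not tested. Of 4 tested other galectins, Lgals3 rose in M1 and TAM (1.27 ± 0.26 and 2.12 ± 0.26), as did Lgals8 (1.00 ± 0.13 and 1.29 ± 0.13), and Lgals1 fell in TAM (-0.88 ± 0.29).

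Of 5 tested other inhibitory ligands and enzymes, H2-T23, which encodes the NKG2A ligand Qa-1, rose in M1 from 1.19 ± 0.707 to 419.8 ± 5.1 CPM (8.46 ± 0.45, adjusted p = 1.38e-07), with counts that are uncertain among related H2 genes. In TAM, Tgfb1 and Fgl1 rose (1.16 ± 0.23 and 1.63 ± 0.39) and Ceacam1 fell (-1.74 ± 0.32). Of 3 tested co-stimulatory ligands, Icosl and Tnfsf9 fell in TAM (-1.54 ± 0.35 and -0.75 ± 0.23) and none was called in M1. Of 4 tested nectin relatives, Cadm1 rose and Nectin4 fell in M1 (1.31 ± 0.23 and -1.88 ± 0.45), and none was called in TAM. Beside these lists, 25.7% of all tested genes were called in M1 and 50.5% in TAM, so that a call in TAM was common. Without M0 replicate 1, 2 inhibitory ligands rose and 2 fell in both M1 and TAM. In that fit 2 nectin relatives rose and 1 fell in M1, and 1 rose and 1 fell in TAM. The shares of all tested genes called were then 47.1% in M1 and 66.7% in TAM. H2-T23 then rose by 9.09 ± 0.13 in M1. Ido1, the tryptophan-degrading enzyme gene, had 0 counts in all 12 libraries.

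Around the ligands, the NF-κB pathway genes Bcl3 and Relb, within 200 kb of Nectin2, rose in both M1 (3.84 ± 0.20 and 1.61 ± 0.21) and TAM (2.28 ± 0.20 and 2.02 ± 0.21). Nos2, 2720 bp from Lgals9, rose in M1 (adjusted p = 0.00042), from a mean of 0 CPM in M0 to 1.42 in M1. It passed the filter only through the M1 libraries, so this call adds little to the levels. Other named neighbours called in M1 or TAM versus M0 were Ermp1, Ift57, Insyn1, Rec114, Lyrm9, Ksr1, Apoe, Bcam, Tomm40, Ppp1r37, Gemin7, Pex10, Rer1 and Pank4. Insyn1 had means of 0.127 CPM in M0, 0.0174 in M1 and 3.29 in TAM. It passed the filter only through the TAM libraries, so its call in TAM adds little to these levels. Gm16174, an antisense gene near Pvr and Nectin2, rose in M1 (2.10 ± 0.39, adjusted p = 0.00292). Its means were 0.281 CPM in M0, 1.26 in M1 and 0.304 in TAM, so its place among the tested genes leans on M1 and the call adds little. Gm16184, the pseudogene overlapping Pvr, rose in TAM (2.31 ± 0.58, adjusted p = 0.00671). Gm16184 lies on the strand opposite to Pvr, and as no strand setting is given, its reads and those of Pvr cannot be told apart. All 13 neighbours called in M1 and all 18 called in TAM kept their call and direction without M0 replicate 1. Around Nectin2, 15 genes were tested, Pvr among them. Of these, 4 rose and 2 fell in M1, and 5 rose and 4 fell in TAM. Of all tested genes, 25.7% were called in M1 and 50.5% in TAM, so that called neighbours are common in TAM.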
